A study of Mus musculus with 2 samples.

Results

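The genes described here are 8 genes that fat cells use to take up, bind and store lipid, or that they secrete: Pparg, Lpl, Fabp4, Plin1, Plin4, Cidec, Adipoq and Cfd. They were chosen by name, with values of these arrays already known, and each is read from its brightest probe set by the mean of both arrays. Of the 8 genes, 7 had a probe set that carried their name, among 22180 named genes in all. No signal of Cfd was read, and it enters only the count of promoter windows. The values come from nasal mucosa of C57BL/6 mice aged 4 to 6 weeks, sampled at day 3 after papain or after phosphate-buffered saline (PBS). Papain, a cysteine protease from papaya, serves as a model allergen, and PBS is its vehicle. Each group was hybridised to 1 Mouse Gene 2.0 ST array of Affymetrix. Material was pooled: per the design text, 4 samples went into a specimen. With 1 array per group there is no replicate check and no test, and every ratio below is a description of this pair of arrays.

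White fat cells hold triglyceride in a large lipid droplet. Lipoprotein lipase on nearby capillaries frees fatty acids from circulating lipoproteins, carrier proteins bind them inside the cell, and perilipins coat the droplet and control access of lipases to it. The nuclear receptor PPARγ, encoded by Pparg, switches on most of these genes during fat cell differentiation. Several members are also used outside fat: Fabp4 in capillary endothelium and macrophages, Lpl in muscle and macrophages, and Pparg in macrophages and some epithelia.

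Over 41345 probe sets the median log2 signal was 5.70 after papain and 5.64 after PBS, and the median log2 ratio of the named genes, papain minus PBS, was -0.03. As a guide to the level of a gene without much transcript, 24 genes of other tissues (sperm, oocyte, kidney, retina, pituitary and the like) had a median log2 signal of 4.88 after papain and 5.02 after PBS, here called background level. Their 95th percentile was 6.54 after papain and 6.37 after PBS. It rests largely on Aqp2, at 6.66 after papain and 6.51 after PBS, which only Odf1 exceeded. The next brightest were Gdf9 at 5.84 after papain and Umod at 5.60 after PBS. Probe sets differ in how strongly they bind, so these levels place a signal on the array and give no amount of transcript. Where a gene had more than 1 probe set, as 1082 genes did, the pooled SD of the log2 ratios within a gene was 0.32, which measures error between probe sets, not between animals.

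The adipocyte lipid storage genes were dim, and they did not move together. Of the 7 measured, only Lpl was above the 95th percentile of the genes of other tissues in both arrays. The median of all named genes, 6.29 after papain and 6.30 after PBS, was below that percentile too. The hormone gene Adipoq, which is close to specific for fat cells, was under background level in both arrays, and the other 5 lay between background level and that percentile. Of these 5, Plin4 was above every gene of other tissues except Odf1 and Aqp2 in both arrays. The adipocyte name is thus what these genes are known for, and apart from Lpl their signals in this mucosa did not exceed that percentile. In tissue of mixed cells, fewer cells of a type and less RNA per cell cannot be told apart.

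Between the arrays, 5 of the 7 genes were lower after papain and 2 were higher, while 54.4% of all named genes were lower. The ratios ran from -0.97 for Fabp4 to 0.56 for Cidec on the log2 scale, with a median of -0.24 against -0.03 over all named genes. At a 1.5-fold threshold, 1 of the 7, Fabp4, was lower, where 4.34% of all named genes were, and 0 were higher, where 5.38% were. At 2-fold, 0 of the 7 passed in either direction, against 0.730% of named genes lower and 1.83% higher. The size of the ratio was under the probe set SD of 0.32 for 3 genes and above it for 4, and only Fabp4 exceeded 2 such SDs.

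**Figure D1:**
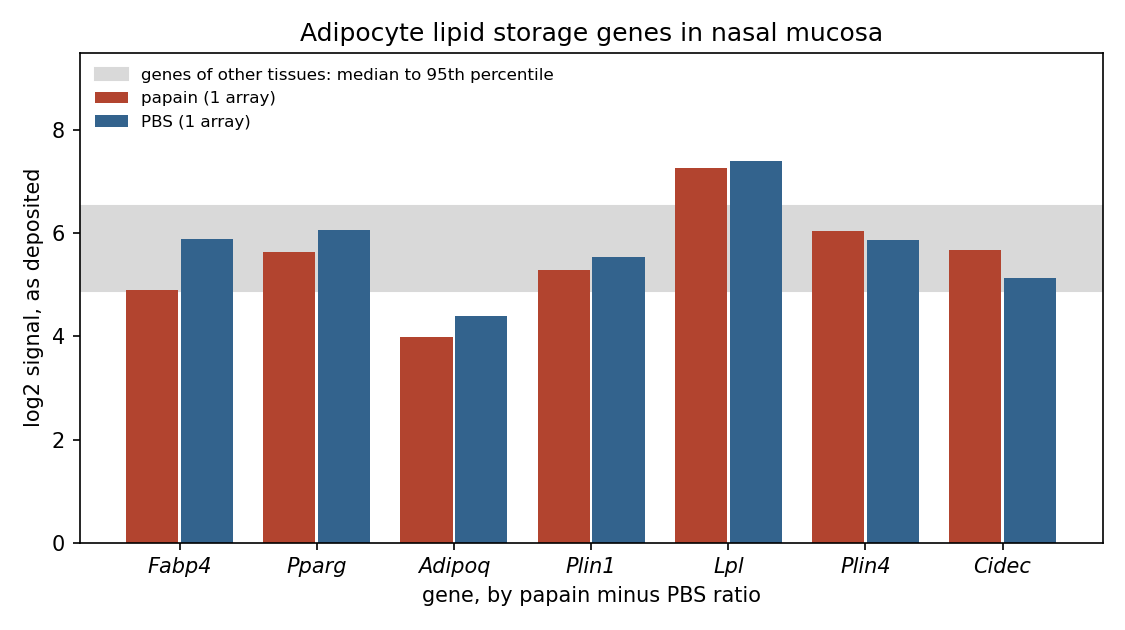
Log2 signal (vertical axis) of the 7 measured lipid storage genes, with the papain array in red left of the PBS array in blue and genes ordered by their ratio. The grey band runs from the lower of the arrays' medians to the higher of their 95th percentiles for 24 genes of other tissues; Lpl stands above it in both arrays, at 7.28 after papain and 7.40 after PBS, and Adipoq below it in both.

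Pparg, the regulator of the group, had a log2 signal of 5.64 after papain and 6.07 after PBS. The papain signal was the lower one, with a log2 ratio of -0.44. Of 2048 named genes within 0.25 log2 units of its mean signal, 8.69% had a lower ratio. Pparg is transcribed from more than 1 start, and the form called PPARγ2 is largely restricted to fat, while PPARγ1 is found more widely. The 1 probe set named for Pparg gives a single value, so the forms were not read apart. The sequences around its starts are shown because that value cannot be assigned to any of them. RefSeq, on build GRCm38.p6, lists 3 of them on the plus strand, each window holding 250 bases before the start and 50 after it; capitals mark AGGTCA, the core bound by nuclear receptors, and TTGCNNAA, the core bound by C/EBP factors, on either strand.
Pparg start 1, chr6:115360894-115361193: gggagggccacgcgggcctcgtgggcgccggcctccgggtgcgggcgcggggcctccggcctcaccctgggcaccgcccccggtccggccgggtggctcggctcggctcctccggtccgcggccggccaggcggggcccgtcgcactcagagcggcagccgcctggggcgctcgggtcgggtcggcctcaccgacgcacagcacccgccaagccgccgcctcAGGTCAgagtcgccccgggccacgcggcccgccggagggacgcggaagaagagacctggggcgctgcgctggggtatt
Pparg start 2, chr6:115362099-115362398: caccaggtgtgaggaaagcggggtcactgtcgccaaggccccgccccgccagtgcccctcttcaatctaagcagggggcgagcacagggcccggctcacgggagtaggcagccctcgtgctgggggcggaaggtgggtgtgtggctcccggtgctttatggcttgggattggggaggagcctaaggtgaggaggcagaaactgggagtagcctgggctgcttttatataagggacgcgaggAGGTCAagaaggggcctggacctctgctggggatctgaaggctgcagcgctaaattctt
Pparg start 3, chr6:115421816-115422115: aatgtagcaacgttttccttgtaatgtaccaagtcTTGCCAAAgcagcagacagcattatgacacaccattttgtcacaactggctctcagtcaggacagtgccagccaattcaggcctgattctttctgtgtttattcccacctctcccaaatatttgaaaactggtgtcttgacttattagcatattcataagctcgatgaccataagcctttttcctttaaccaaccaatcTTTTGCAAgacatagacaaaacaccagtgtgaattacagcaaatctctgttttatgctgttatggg

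The first and second windows each held 1 AGGTCA and no TTGCNNAA, and the third held 2 matches of TTGCNNAA and no AGGTCA. Over all 32851 promoter windows of that length in the table, 16.3% held AGGTCA and 10.8% held TTGCNNAA. The full PPAR response element, AGGTCA repeated in the same direction with 1 base between the copies, was in 0.0396% of windows. Of the 8 lipid storage genes, 6 had windows in the table, Cfd among them, 9 windows in all. Lpl and Fabp4 had none, so their promoters were not read. Among these 9, 2 held AGGTCA, both of Pparg, 3 held TTGCNNAA, from Pparg, Plin1 and Cidec, and 0 held the full element. A match is a stretch of letters and no measure of binding, and a window of 300 bases leaves out more distant enhancers.

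Lipid uptake was represented by Lpl and Fabp4. Lpl, the lipase that releases fatty acids from circulating triglyceride, was measured by 2 probe sets. The brighter had a log2 signal of 7.28 after papain and 7.40 after PBS, a log2 ratio of -0.12. The dimmer had a log2 signal of 4.62 after papain and 4.95 after PBS, a log2 ratio of -0.33, and both of its signals were under background level. Both probe sets were slightly lower after papain. The brighter ratio lay near the middle of genes of like signal, of which 51.5% had a lower ratio.

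Fabp4, the fatty acid carrier of fat cells also known as aP2, had the largest difference of the 7. Its log2 signal was 4.91 after papain and 5.88 after PBS, a log2 ratio of -0.97 or a PBS over papain ratio of 1.96. The papain signal was only 0.03 above background level, so the size of this fold is uncertain. Of the 22180 named genes, 0.830% had a lower ratio than Fabp4, and of 2108 named genes within 0.25 log2 units of its mean signal, 0.806% did. The central 95% of ratios of those 2108 genes ran from -0.67 to 1.05, and Fabp4 was the only one of the 7 outside such a range around its own signal. This is a position among genes on 1 pair of arrays and no test.

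The genes of the droplet surface went apart. Plin1, the perilipin of large droplets that gates lipolysis, had a log2 signal of 5.30 after papain and 5.53 after PBS. Its log2 ratio was -0.24, smaller than the probe set SD. Plin4, a perilipin that coats small new droplets, had 6.05 after papain and 5.86 after PBS. Its log2 ratio of 0.19 was also smaller than that SD, on the other side of 0. Cidec, which joins droplets at their contact sites and lets lipid pass into the larger one, had a log2 signal of 5.68 after papain and 5.13 after PBS. It was 1.47-fold higher after papain, with a log2 ratio of 0.56, just short of the 1.5-fold threshold. Its PBS signal was 0.11 above background level, and 9.35% of 2129 genes of like signal had a higher ratio.

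Of Adipoq and Cfd, listed here for what fat cells secrete, only Adipoq was measured. Adipoq, which encodes the hormone adiponectin, had a log2 signal of 4.00 after papain and 4.39 after PBS. The log2 ratio was -0.39, and with both signals under background level it is a ratio of array signals and no measure of transcript. Of 1426 genes of like signal, 10.6% had a lower ratio.

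**Figure D2:**
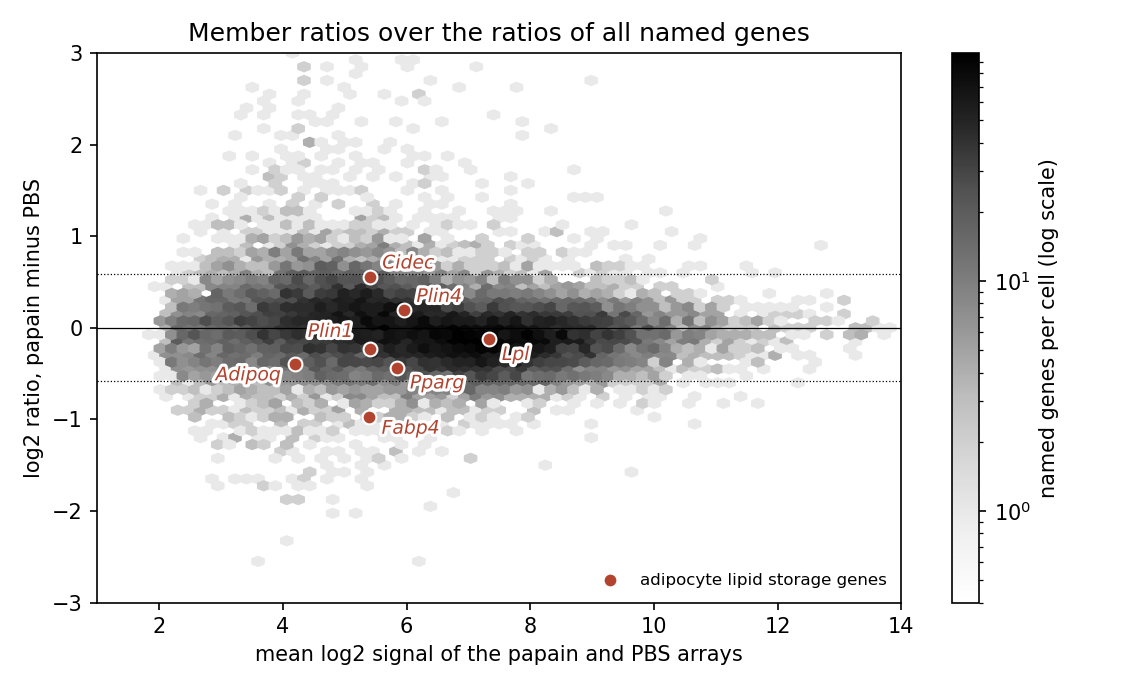
Log2 ratio, papain minus PBS (vertical axis), against the mean log2 signal of both arrays (horizontal axis) for all named genes, drawn as shaded cells whose darkness gives the number of genes on a log scale, with 94 genes beyond 3 log2 units left out. Red points are the 7 lipid storage genes and dotted lines mark 1.5-fold; Fabp4 at -0.97 lies past the lower line and Cidec at 0.56 just inside the upper one, and the other 5 fall between them.

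Genes across the members' whole signal range, not matched to each member, gave a similar comparison. The 12387 named genes with a mean signal within the members' range, 4.19 to 7.34, had a median log2 ratio of -0.01, and 51.1% of them were lower after papain. Set beside these genes, the median of -0.24 over the lipid storage genes is lower too, and it rests on 7 values. Since the genes were chosen with values of these arrays known, this comparison adds no support.

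The wider machinery of fat metabolism was read from 9 lists that leave out the members. Of their 90 genes, 84 were measured; 58 were lower after papain and 26 higher, where 54.4% of all named genes were lower, and the median log2 ratio was -0.13. After loess, 48 were lower and the median was -0.04. At 1.5-fold, 4 of the 84 were lower and 3 higher, against 4.34% and 5.38% of all named genes.

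Other proteins of the lipid droplet had small ratios, with a median of -0.14 on the log2 scale and 0 of 9 past 1.5-fold. All 9 measured genes were lower after papain in the values as deposited, where 54.4% of all named genes were. After loess 5 of the 9 were lower, and the median was -0.01. The lowest was Bscl2, which encodes seipin and acts in droplet formation, with a log2 signal of 7.52 after papain and 8.03 after PBS, a ratio of -0.51. Plin2, the perilipin found in most cell types, had 7.10 after papain and 7.54 after PBS, a ratio of -0.44. Fitm1 had -0.20 and Hilpda, an inhibitor of the lipase ATGL, had -0.16. Cidea, a relative of Cidec, had -0.14 where Cidec had 0.56.

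Genes of lipolysis showed no common direction, with 4 of 7 lower and a median log2 ratio of -0.03 that changed sign under other scalings. Pnpla2, which encodes ATGL, the first lipase of triglyceride breakdown, had a log2 ratio of -0.32, and Lipe, hormone-sensitive lipase, had 0.14. The channel gene Aqp7, which lets glycerol out of fat cells, had 0.13. Pnpla3, a relative of Pnpla2, was the 1 gene of the list past 1.5-fold, at 6.98 after papain and 6.30 after PBS.

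Among 16 genes of fatty acid and triglyceride synthesis, 10 were lower and 6 higher, with a median log2 ratio of -0.13. Scd1, the desaturase that makes oleate, was the only one past 1.5-fold, with a log2 signal of 7.94 after papain and 8.55 after PBS, a ratio of -0.61. That count was 0 after loess, after quantile normalization and with the median ratio of all named genes set to 0. Agpat2 had -0.58 and Dgat1 -0.56, both enzymes of triglyceride assembly. The elongase gene Elovl6 had -0.52. Dgat2, the other enzyme of the last step, had 0.04.

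Genes of fatty acid uptake had a median log2 ratio of -0.07 over 9 genes, 5 of them lower, and this median changed sign under other scalings. The scavenger receptor Cd36 was bright, with a log2 signal of 11.40 after papain and 11.48 after PBS, a ratio of -0.08. Slc27a1, a fatty acid transporter, had -0.47 and Lmf1, needed to fold lipoprotein lipase, had -0.23. Gpihbp1, which anchors lipoprotein lipase on capillaries, had 0.26, and Angptl4, which inhibits that lipase, had 0.19. Fabp5, the related carrier of epidermis and macrophages, differed between its 4 probe sets. Its brightest probe set had a log2 ratio of 0.12, and the other 3 ran from -0.58 to -0.56.

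The adipogenic transcription factors had mostly negative ratios, with 10 of 11 genes below 0, where 54.4% of all named genes were. Their median log2 ratio was -0.27, and -0.20 after loess, where 10 of 11 were still below 0. Which cells of the mucosa gave these signals was not tested, and the list name states only a known role. Zfp423, listed for its part in commitment to the fat lineage, had a log2 signal of 5.66 after papain and 6.41 after PBS, a ratio of -0.75. Ppargc1a, a coactivator of PPARγ, had 8.17 after papain and 8.78 after PBS, a ratio of -0.60. Zfp423 and Ppargc1a were the 2 genes of the list past 1.5-fold as deposited. That count was 1 after loess, after quantile normalization and with the median ratio of all named genes set to 0. Rxra, the partner of PPARγ on DNA, had -0.52, Srebf1 -0.36 and Cebpa, which acts with Pparg in fat cell differentiation, -0.32. The 1 gene above 0 was Rxrg, at 0.35, which was named after its value was seen.

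Insulin and adiponectin signalling genes were lower in 7 of 8 cases, where 54.4% of all named genes were, with 0 past 1.5-fold. Their median log2 ratio was -0.24, and -0.15 after loess, where 7 of 8 were still lower. Slc2a4, the glucose transporter that insulin moves to the surface of fat and muscle cells, had -0.41, Irs1 -0.38, Akt2 -0.38 and Irs2 -0.25.

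The remaining lists checked the fat cell label with other genes. Of 5 secreted adipokines, 3 were lower and the median log2 ratio was -0.05. Lep, the leptin gene, had a log2 signal of 4.79 after papain and 4.55 after PBS, under background level in both. Retn, the resistin gene, had 5.13 after papain and 5.18 after PBS, within 0.25 of it. Orm1, an acute phase protein gene, had a ratio of 0.62, Rbp4 -0.35 and Apln -0.21. The brown fat gene Ucp1 had 4.65 after papain and 4.34 after PBS, again under background level in both. Adipoq, Lep and Ucp1 were thus under background level in both arrays, and most other genes of these lists were not. Under background level in both arrays were 1 of the 7 lipid storage genes, 1 of 5 adipokines, 1 of 11 other adipocyte markers and 2 of 8 genes of brown and beige fat. For scale, 23.8% of all named genes had a papain signal below that of Fabp4, which lay just above background level. After PBS, 29.5% were below Cidec, also just above it. The share of all named genes under it in both arrays was not counted, so these counts set fat genes apart from no others.

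Of the 11 other adipocyte markers, 6 were above the 95th percentile of the genes of other tissues in both arrays. That percentile lay close to the median of all named genes, 6.29 after papain and 6.30 after PBS, so many genes passed it. Lgals12, a galectin gene of fat cells, had a log2 signal of 8.43 after papain and 8.34 after PBS, and Trarg1, which acts in glucose transporter traffic, had 8.24 after papain and 8.02 after PBS, both named after their values were seen. Signals of the listed fat cell markers thus ran from under background level to bright, and the cells they came from were not tested. In this list, with a median of -0.01 that changed sign under other scalings, Car3, a carbonic anhydrase of fat and muscle, was the 1 past 1.5-fold. The brighter of its 2 probe sets had a log2 signal of 7.42 after papain and 8.92 after PBS, a ratio of -1.50. The dimmer had 4.56 after papain and 5.87 after PBS, a ratio of -1.32. That papain signal was under the background level of 4.88, so the size of the dimmer ratio is uncertain. Sncg had 0.34, Slc7a10 0.25 and Adig -0.24. The 8 measured genes of brown and beige fat, Ucp1 among them, had a median of -0.06, which also changed sign, and 4 of them were lower. Otop1, a proton channel gene, was the 1 gene there past 1.5-fold, with a log2 signal of 7.26 after papain and 5.37 after PBS, 3.72-fold higher after papain. Its PBS signal was under the 95th percentile of the genes of other tissues, 6.37 after PBS, so the size of this fold is uncertain. Fabp3, the muscle relative of Fabp4, had -0.42, Ppara -0.40 and Elovl3 0.34.

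**Figure D3:**
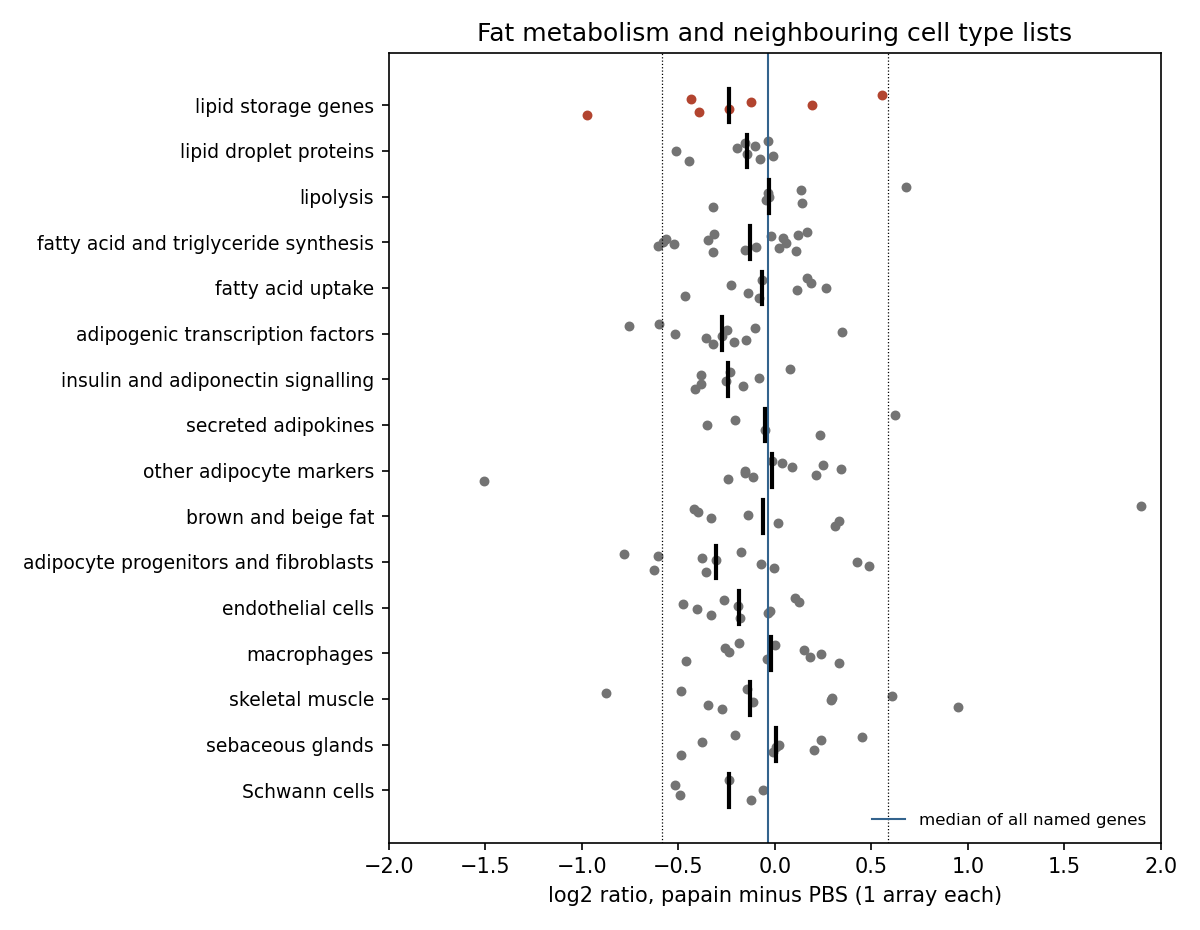
Log2 ratio, papain minus PBS (horizontal axis), of each measured gene of the lipid storage group (red), 9 lists of fat metabolism and 6 lists of other cell types (grey), with a black bar at each list's median, a blue line at the median of all named genes, and dotted lines at 1.5-fold. Vertical offsets within a list only separate the points; the lipid storage genes spread from -0.97 to 0.56, and Car3 at -1.50 and Otop1 at 1.89 are the widest points.

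Lists of other cell types, some of which express members of the group, had medians from -0.31 to 0.01. Of 11 genes of adipocyte progenitors and fibroblasts, 9 were lower, where 54.4% of all named genes were, with a median log2 ratio of -0.31. Their summed linear signal was 14015 after papain and 19652 after PBS. Most of the difference in that sum came from the bright collagen genes Col1a1 and Col1a2. Their log2 signals were 12.01 and 11.29 after papain and 12.62 and 12.07 after PBS. Col1a2 had -0.78, Pdgfrb -0.62 and Col1a1 -0.60, the 3 past 1.5-fold as deposited, a count that was 1 after loess, and Pi16 had 0.49. Endothelial genes, which share Fabp4 with fat, were lower in 8 of 10 cases, against 54.4% of all named genes, with a median of -0.19, 0 past 1.5-fold and a summed linear signal of 976 after papain and 1109 after PBS. After loess, 7 of the 10 were lower and the median was -0.06. Cldn5 had -0.48, Tie1 -0.40, Cdh5 -0.33 and Egfl7 -0.26. Macrophage genes had a median of -0.02, which changed sign under other scalings, with 6 of 10 lower and a summed linear signal of 1732 after papain and 1843 after PBS. Cd68 had -0.46, Adgre1 0.33, Marco -0.26 and C1qa 0.24.

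Skeletal muscle genes, which share Lpl with fat, had a median of -0.13 with 6 of 10 lower, and 5 of the 10 were under background level in both arrays. Their summed linear signal was 383 after papain and 371 after PBS, with Mylpf at a log2 ratio of -0.87, Tnni2 at 0.61 and Mb at -0.48. Ckm had log2 ratios of 0.95 in its brighter probe set and 0.20 in its dimmer one. Sebaceous gland genes, which mark another lipid-filled cell, had a median of 0.01 that changed sign, with Mc5r at -0.48, Krt79 at 0.45, Far2 at -0.38 and Fa2h at 0.24 and a summed linear signal of 590 after papain and 648 after PBS. All 5 measured Schwann cell genes were lower, where 54.4% of all named genes were, with a median of -0.24, and -0.18 after loess. Pmp22 had -0.52, Sox10 -0.49, Cnp -0.24 and Mbp -0.12, and their list had a summed linear signal of 1428 after papain and 1567 after PBS. The part of these cell types in the values of the lipid storage genes was not tested.

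Genes of the vomeronasal organ, which senses pheromones beside the nasal septum, also differed between the arrays. Of 285 vomeronasal receptor genes, 199 had a papain signal at least 2-fold above the PBS signal and 1 was lower by that much. Of 6 other vomeronasal neuron genes, 5 were higher, with H2-M1 at a log2 ratio of 3.88, Calr4 at 3.35, H2-M10.5 at 3.04 and Trpc2 at 0.83. The median was 1.93, and the summed linear signal of the 6 was 2369 after papain and 1611 after PBS. Omp, the 1 gene that was not higher, had a log2 signal of 9.87 after papain and 9.94 after PBS. It was the brightest of the 6 and so weighed most in that sum. The log2 signals after PBS, 3.31 for H2-M1, 4.59 for Calr4 and 4.43 for H2-M10.5, were under background level, so these 3 ratios are no measure of the fold in transcript. The part of this difference in the ratios of the lipid storage genes was not tested.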

How the data were processed

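Gene expression was measured on 1 Affymetrix array per group, and GEO's labels gave the groups. The log2 signals were deposited by the authors, a scale read from the values themselves. Transcriptome Analysis Console 4.0 is named per the submitters' processing notes; how the authors summarised and normalized the signals was not given in the sources used here. Of 41345 probe sets, 23521 had 1 gene symbol, 1814 several and 16010 none in the platform annotation; only those with 1 were named, and all 7 matched a RefSeq gene. The ratio is the papain minus the PBS log2 signal of a gene's brightest probe set. No test was run, since 2 arrays give no replicate error and their number limits precision. The genes and lists were chosen with earlier results of these data known. From each of the other lists up to 4 genes with the largest ratio were named, those past 1.5-fold first. Always named were Car3, Plin2, Lipe, Pnpla2, Cd36, Cebpa, Ucp1, Lep and Retn. Aqp2, Cidea, Dgat2, Fabp5, Gdf9, Lgals12, Omp, Rxrg, Trarg1 and Umod were added after their values were seen. In the list of genes of other tissues, with a median log2 ratio of 0.04, the rule named Lct at 0.69, Fabp2 at -0.67, Gnat1 at -0.59 and Odf1 at -0.43; Odf1 was bright there, at 10.48 after papain and 10.91 after PBS. The counting steps were tested on simulated data. Python 3.11.15, numpy 2.4.6, pandas 2.3.3, statsmodels 0.14.6 and matplotlib 3.10.9 were used.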

Additional observations from a re-analysis of the deposited data

How the results depend on the processing

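The results were recomputed after quantile normalization, with the median ratio of named genes set to 0, after loess of the ratio on mean signal with a span of 0.3, with the mean or the dimmest of a gene's probe sets, and over members above the median signal only. Of 65 recomputed values, 61 stayed within the probe set SD or, for counts, within 1.5 times, and 4 counts moved. Among the measured members only Lpl had more than 1 probe set. The mean and dimmest settings could thus change no other member's ratio, and unchanged values there show no stability. With the median set to 0, Cidec at 0.59 passed 1.5-fold and 1 gene was higher. Fabp4 reached -1.04 after both loess and quantile normalization, so that 1 gene was at least 2-fold lower in each. Only Lpl was above the median signal, which left 0 genes at least 1.5-fold lower and a median of -0.12. The median over the lipid storage genes ran from -0.33 to -0.12 in all. Lpl was at 0.0029 after loess and the other 6 genes kept their sign under these settings. Among the other lists, the medians of lipolysis, fatty acid uptake, other adipocyte markers, brown and beige fat, macrophages, sebaceous glands and genes of other tissues changed sign in at least 1 of these scalings or probe set choices. Of the 84 measured genes of the 9 fat lists, 4 were at least 1.5-fold lower as deposited and 2 in each of the 3 other scalings; 58 were below 0 as deposited and 48 after loess. No paired analysis was possible because each group is 1 array. Among the lipid storage genes, signals at or below the 95th percentile of the genes of other tissues limit every ratio except that of Lpl's brighter probe set.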
